A study of Mus musculus with 8 samples.

Results

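The glycerol-phosphate acyltransferases and lipins are the enzymes that build phosphatidic acid and turn it into diacylglycerol, and their H3K4me3 peaks were compared between KL and KLG4m/m lung tumor cells. The members were 10 genes given by name, *Gpam*, *Gpat3*, *Gpat4*, *Agpat1*, *Agpat2*, *Agpat3*, *Agpat4*, *Agpat5*, *Lpin1* and *Lpin2*, and every peak that the deposited table lists under them was taken, 30 of 35486 peaks and 10 of 20871 genes. H3K4me3, a histone mark that gathers at the start sites of active genes, was profiled by CUT&Tag, in which an enzyme tethered to an antibody cuts out the DNA next to the mark. The label protocol describes protein A/G fused to micrococcal nuclease as that enzyme. Tumor cells had been sorted from mouse lungs as CD45-CD31-EpCAM+, and there were 2 libraries from KL mice (replicates 1 and 2) and 2 from KLG4m/m mice (replicates 3 and 4).

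KL mice carry Lkb1fl/fl, an allele with which Cre deletes *Lkb1* (*Stk11*), and KLG4m/m mice carry Gpx4m/m on the same KL background. In the Gpx4m/m allele a part of *Gpx4*, the enzyme that reduces phospholipid hydroperoxides, lies between rox sites, and a tamoxifen-activated Dre recombinase that deletes this part is made from a CAG promoter, and only where Cre has removed a stop cassette. Both groups received intranasal Ad-Cre, an adenovirus that carries Cre, and then tamoxifen, and both were sampled 10 weeks after Ad-Cre, so tamoxifen and the loss of *Lkb1* do not separate them. The label protocol counts fewer mice than there are H3K4me3 libraries, so p-values measure the spread between these libraries, which may in part be technical. The question was whether loss of GPX4 in tumor cells goes with a changed mark at genes of triacylglycerol synthesis.

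The pathway begins with glycerol 3-phosphate. GPAT enzymes (*Gpam*, *Gpat3*, *Gpat4*) add the first fatty acid, AGPAT enzymes add the second and so make phosphatidic acid, and lipins remove the phosphate to give diacylglycerol, from which triacylglycerol and the main membrane phospholipids are made. In the lung the alveolar type 2 cell draws on this pathway for surfactant.

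The 4 libraries held 3244495 to 3463731 reads in the listed peaks. Values are CPM, reads scaled to the total of the library in the listed peaks, after TMM scaling, a factor that aligns the bulk of the peaks between libraries, and a log2 fold change is that of KLG4m/m over KL. At the *Gpx4* start site the peak gave 242 and 236 reads in KL and 304 and 301 in KLG4m/m, higher by 0.40 on the log2 scale, but it does not cover the deleted part and so does not check the deletion. Markers of the sorted cell type and of others moved with the genotype. The summed level of 5 epithelial markers was 290 to 303 CPM in KL and 250 to 251 CPM in KLG4m/m, and *Epcam* and *Cdh1* were lower. The 7 of 8 alveolar type 2 markers with a peak summed to 324 to 342 CPM in KL and 239 to 251 CPM in KLG4m/m, with 5 of them lower, and *Sftpc*, which defines these cells, had no listed peak. The 8 of 9 leukocyte markers with a peak summed to 255 to 264 CPM in KL and 316 to 334 CPM in KLG4m/m, with 3 of them (*Ms4a1*, *Adgre1*, *Itgam*) higher, in cells sorted as CD45-. The part of these markers in the values below was not tested, and in bulk libraries fewer cells of a type and less signal per cell cannot be told apart.

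Of the 30 member peaks, 4 were higher and 2 lower in KLG4m/m tumor cells by edgeR's quasi-likelihood test with Benjamini-Hochberg adjustment over all peaks (adjusted p under 0.05), and 24 did not pass. Of all peaks, 3.10% were higher and 5.52% lower. The higher ones were both *Gpam* peaks and the promoters of *Agpat1* and *Agpat4*, and the lower ones were the *Agpat2* promoter and an intron peak of *Gpat4*. The 2 KLG4m/m libraries lay above both KL libraries at 8 member peaks and below both at 8, against 27.5% and 26.6% of all peaks. The 30 peaks had a median of -0.030 on the log2 scale, beside 0.0077 over all peaks. When reads were summed per gene, *Gpam*, *Agpat1* and *Agpat4* were higher and *Agpat2* was lower, 3 and 1 of 10 genes, beside 5.38% and 9.63% of all genes. *Gpam* and *Agpat4* are on the list of triacylglycerol genes that the study drew up from RNA of tumor cells of the same genotypes. *Plpp1*, *Dgat2* and *Gpd1l*, described below, are on that list too. Calls at these genes are thus not independent evidence of the study's direction. For *Dgat2* and *Gpd1l* the paper also reports more H3K4me3 in KLG4m/m tumor cells, from CUT&Tag and ChIP-qPCR. The 2 edgeR alternatives with other library factors and the one on total reads alone called the same numbers. The TMM factors were 0.995 to 1.004, and the median of all peaks ran only from -0.013 to 0.0077 over these fits. The fits were thus nearly the same, and equal numbers add no support. DESeq2 and limma called none of the 30 peaks at an adjusted p under 0.05, with 6 of them under an unadjusted p of 0.05 by DESeq2 and 8 by limma on log2(CPM + 1), and edgeR called no peak in the whole table once either KLG4m/m library was left out.

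**Figure D1:**
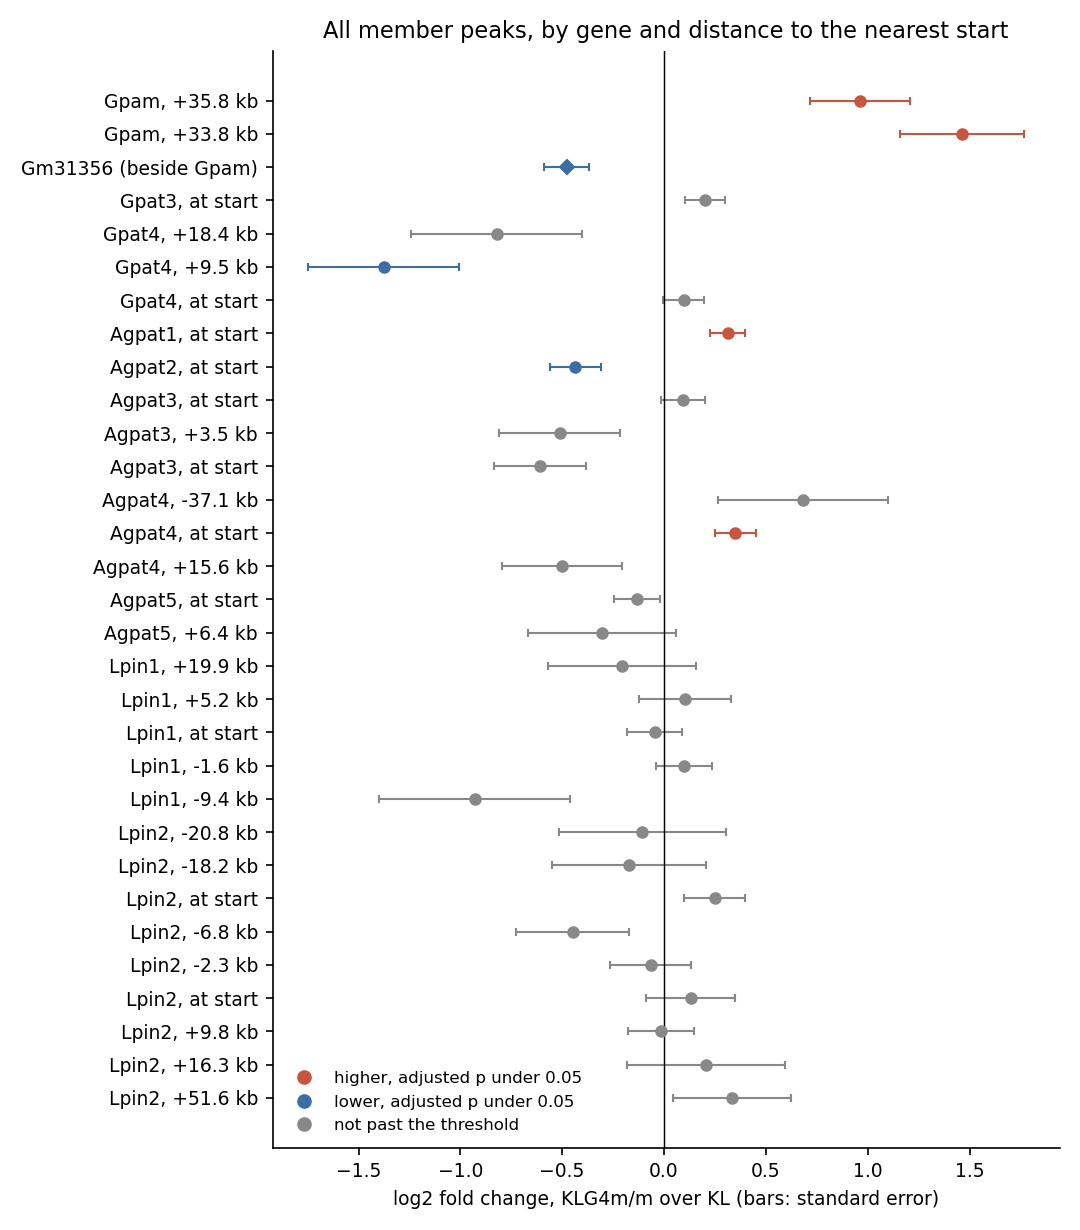
Log2 fold change (KLG4m/m over KL, horizontal axis) of each of the 30 member peaks and of the peak listed under *Gm31356*, with its standard error as a bar; rows give the gene and the distance to the nearest listed start site, positive downstream. Colored points passed an adjusted p under 0.05 by edgeR: 4 member peaks higher, 2 lower, and the *Gm31356* peak (diamond) lower.

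The acyltransferases that open the pathway are described first. *Gpam* encodes GPAT1, the enzyme of the mitochondrial outer membrane that starts glycerolipid synthesis. Both peaks listed under it lie beyond its 3′ end, 3.84 kb and 5.77 kb past the end of the gene, and are annotated as distal intergenic. The peak at chr19:55051826-55052226, which lies 33.8 kb downstream of the listed start, gave 15 and 12 reads in KL and 35 and 37 in KLG4m/m. The groups did not overlap, and the level went from 3.89 ± 0.61 to 10.8 ± 0.92 CPM (SD, n = 2 and 2), so the peak was higher by 1.46 ± 0.30 (SE) on the log2 scale (edgeR adjusted p = 0.00312). The peak at chr19:55049902-55050302, 35.8 kb downstream, gave 25 and 24 reads in KL and 48 and 44 in KLG4m/m, a difference of 0.96 ± 0.24 (SE) on the log2 scale (edgeR adjusted p = 0.0139). These are weak peaks: their mean levels stood at the 32nd and 43rd percentiles of all peaks. The positions are those of the table. The methods name an Ensembl mouse genome (Mus_musculus_Ensemble_94) for mapping, but the table's start sites do not lie where RefSeq (GRCm38.p6) puts them: of 14002 genes with a start in both, 1.68% had one within 10 bp, and none of the 8 members compared did.

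No peak at a *Gpam* start site is listed under *Gpam*. A strong peak at chr19:55087852-55088252, at the 63rd percentile of the peaks within 1 kb of a start site, is listed under *Gm31356*, and its center lies 1993 bp upstream of the *Gpam* start that the table uses. In RefSeq (GRCm38.p6) *Gm31356* has a start 6 bp from one of the *Gpam* starts, on the other strand, so that H3K4me3 there cannot be given to one of the 2 genes. The peak was picked out with its values in view. It gave 217 and 234 reads in KL and 162 and 149 in KLG4m/m, 64.9 ± 3.5 and 46.6 ± 0.60 CPM. Both KLG4m/m libraries lay below both KL libraries, and the log2 fold change was -0.48 ± 0.11 (SE; edgeR adjusted p = 0.00733). The peak beside the *Gpam* start and the pair past its 3′ end therefore moved in opposite directions. The RefSeq window at this *Gpam* start is shown because no member peak covers it. It runs from 250 bases before to 50 bases after the start (GRCm38.p6, chr19:55099428-55099727, minus strand), 5′ to 3′, with the match to the GC box in capitals.
Gpam: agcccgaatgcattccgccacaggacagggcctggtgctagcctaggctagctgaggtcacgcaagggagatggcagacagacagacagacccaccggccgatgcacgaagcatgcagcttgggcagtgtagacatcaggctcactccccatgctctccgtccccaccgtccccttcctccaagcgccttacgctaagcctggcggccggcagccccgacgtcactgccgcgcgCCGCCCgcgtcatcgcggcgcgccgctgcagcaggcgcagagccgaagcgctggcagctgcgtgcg

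A set of 6 short motifs was searched on both strands in each promoter window, with matches written in capitals: CCAAT (the CCAAT box), GGGCGG (the GC box), TATAAA (the TATA box), CACGTG (the E-box), TCACNCCAC (a sterol element) and TGACNNNGC (an antioxidant element). Of the 32851 RefSeq promoter windows of this length, 37.4% hold CCAAT, 35.7% GGGCGG, 13.6% TATAAA, 7.15% CACGTG, 1.24% TCACNCCAC and 12.4% TGACNNNGC. The *Gpam* window has a GC content of 68% and 30 CG pairs, beside medians of 52.7% and 7 over all windows, and of the 6 motifs it holds 1, a GC box. Windows were found for 8 of the 10 genes, and *Gpat4* and *Agpat5* had none.

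Counting the *Gm31356* peak under *Gpam*, an alternative added after the values were seen, took the summed log2 fold change of *Gpam* from 1.16 ± 0.20 (SE; edgeR adjusted p = 5.7e-06) to -0.10 ± 0.10 (SE; edgeR adjusted p = 0.570). In the first case the sum was 10.9 ± 0.83 CPM in KL and 24.6 ± 0.61 CPM in KLG4m/m, and in the second it was 75.9 ± 2.6 and 71.1 ± 0.18 CPM. With all 3 peaks taken as *Gpam*, the fitted difference from the gene as a whole was 1.56 and 1.05 on the log2 scale at the 2 distal peaks and -0.39 at the *Gm31356* peak. These differences are a description, without a test, since the peaks were put together with their values in view. The direction of *Gpam* in a sum per gene thus depended on which gene the start-site peak was listed under.

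**Figure D2:**
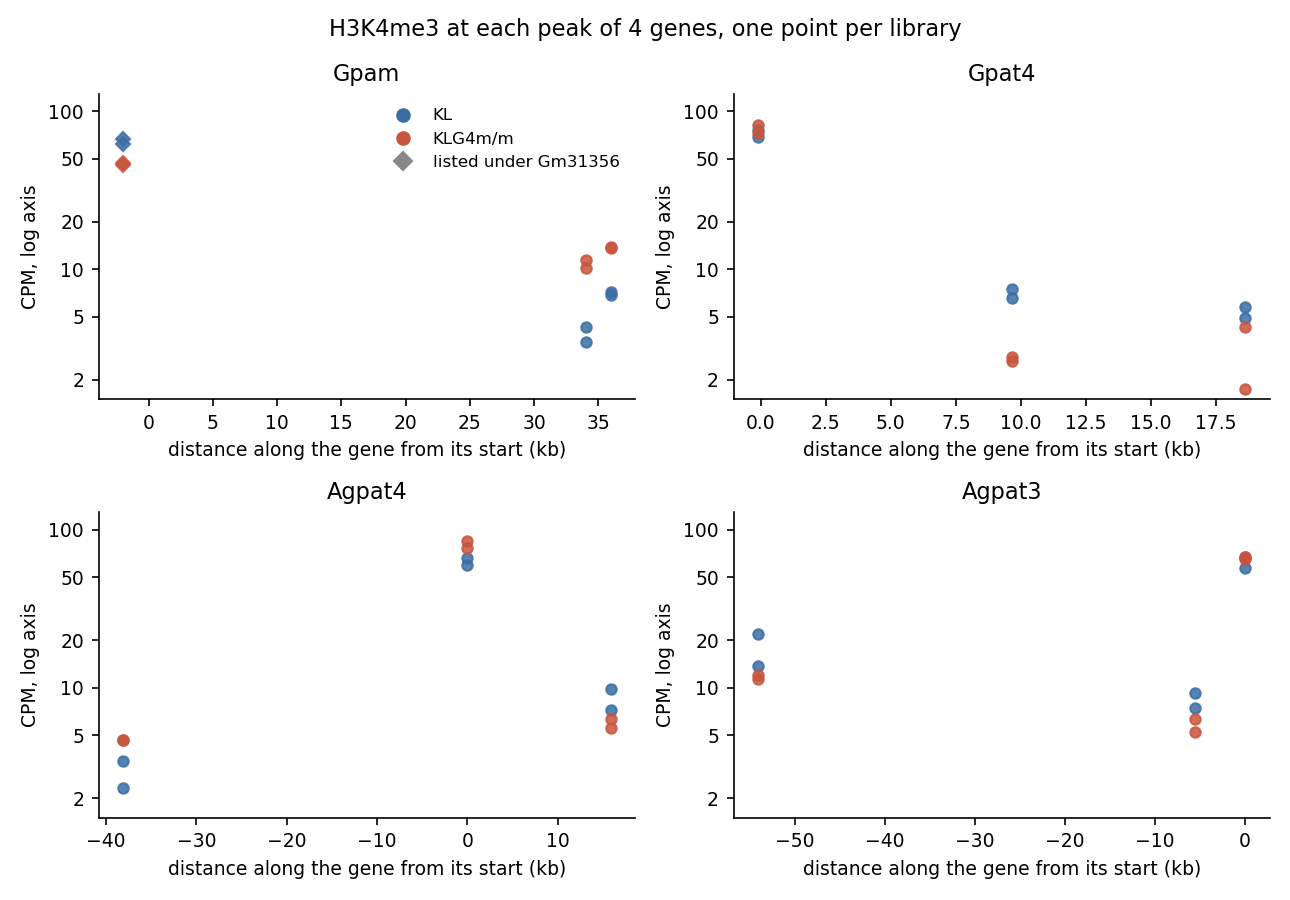
H3K4me3 level (CPM, log axis) of each library at each peak of *Gpam*, *Gpat4*, *Agpat4* and *Agpat3*, against the distance of the peak's center from the gene's start (kb, positive along the gene); blue points are the KL and red points the KLG4m/m libraries. At *Gpam* the red points lie above the blue ones past the 3′ end and below them at the peak listed under *Gm31356* (diamonds), and at *Gpat4* they lie below the blue ones in the introns only.

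*Gpat3* and *Gpat4* encode the GPAT enzymes of the endoplasmic reticulum. The *Gpat3* promoter peak (chr5:100994162-100994562) gave 278 and 241 reads in KL and 306 and 268 in KLG4m/m. In CPM the KLG4m/m libraries were just above both KL libraries (74.7 ± 7.5 against 85.9 ± 4.1), and the log2 fold change of 0.20 ± 0.098 (SE) did not pass (edgeR adjusted p = 0.200). The *Gpat4* promoter (chr8:23698353-23698753) gave 265 and 239 reads in KL and 252 and 266 in KLG4m/m, overlapping groups with a log2 fold change of 0.10 (95% interval -0.11 to 0.30).

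Inside *Gpat4* lie 2 weaker peaks. The peak at chr8:23688576-23688976, in intron 1 of 12 and 9.5 kb downstream of the start, gave 26 and 23 reads in KL and 9 and 9 in KLG4m/m. The peak level fell from 7.05 ± 0.60 to 2.70 ± 0.12 CPM, by 1.38 on the log2 scale (SE 0.37; edgeR adjusted p = 0.0201). The second intron peak, 18.4 kb downstream, gave 17 and 20 reads against 6 and 14, also without overlap, and its log2 fold change of -0.82 ± 0.42 (SE) did not pass (edgeR adjusted p = 0.227). The first intron peak differed from *Gpat4* as a whole by -1.35, which just missed the threshold (edgeR diffSpliceDGE, adjusted p = 0.0524). Summed over its 3 peaks, of which the promoter holds most of the reads, *Gpat4* gave a log2 fold change of -0.03 (95% interval -0.22 to 0.16).

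The AGPAT enzymes acylate lysophosphatidic acid to phosphatidic acid, and 2 of their promoters were higher and 1 was lower. AGPAT1 and AGPAT2 are the best known for this activity, and loss of AGPAT2 causes a congenital lipodystrophy. The *Agpat1* promoter (chr17:34822882-34823282) gave 285 and 289 reads in KL and 356 and 329 in KLG4m/m. It was the strongest member peak, at the 91st percentile of start-site peaks, and rose from 82.6 ± 0.89 to 103 ± 0.97 CPM, a log2 fold change of 0.31 ± 0.088 (SE; edgeR adjusted p = 0.0258). The *Agpat2* promoter (chr2:26494388-26494788) gave 175 and 174 reads in KL and 133 and 115 in KLG4m/m. It fell from 50.2 ± 0.16 to 37.1 ± 2.1 CPM, by 0.44 on the log2 scale (SE 0.12; edgeR adjusted p = 0.0281). Each of these 2 genes has 1 listed peak, so no within-gene comparison was possible.

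*Agpat4* encodes another acyltransferase of the family. Its promoter (chr17:12337964-12338364) gave 209 and 231 reads in KL and 264 and 275 in KLG4m/m. The groups did not overlap, and the level rose from 63.3 ± 4.5 to 80.9 ± 6.1 CPM, a log2 fold change of 0.35 ± 0.10 (SE; edgeR adjusted p = 0.0304). The intron peak 15.6 kb downstream gave 25 and 34 reads against 22 and 18 (log2 fold change -0.50, edgeR adjusted p = 0.303), and the intergenic peak 37.1 kb upstream gave 8 and 12 reads against 16 and 15 (0.68, edgeR adjusted p = 0.323). Neither passed, and both also lay apart between the groups, in opposite directions. The 4 further peaks inside *Agpat4* are listed under *Tdgf1-ps2*, and none of them passed.

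The *Agpat2* and *Agpat4* windows of RefSeq are shown because these promoters moved in opposite directions. Both are on GRCm38.p6, from 250 bases before to 50 after the start, 5′ to 3′, with motif matches in capitals: *Agpat2* at chr2:26604368-26604667 on the minus strand and *Agpat4* at chr17:12119034-12119333 on the plus strand.
Agpat2: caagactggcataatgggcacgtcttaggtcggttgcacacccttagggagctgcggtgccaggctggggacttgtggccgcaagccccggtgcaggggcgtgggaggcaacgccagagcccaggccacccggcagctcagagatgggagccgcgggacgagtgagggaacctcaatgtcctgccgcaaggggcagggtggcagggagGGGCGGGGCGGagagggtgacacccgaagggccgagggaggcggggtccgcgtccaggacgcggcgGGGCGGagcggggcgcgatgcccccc
Agpat4: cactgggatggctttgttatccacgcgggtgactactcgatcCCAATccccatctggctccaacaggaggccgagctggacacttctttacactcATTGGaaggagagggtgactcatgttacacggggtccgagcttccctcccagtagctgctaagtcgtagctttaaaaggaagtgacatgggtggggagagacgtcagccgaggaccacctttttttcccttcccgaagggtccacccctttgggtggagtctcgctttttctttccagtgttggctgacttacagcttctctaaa
The *Agpat2* window holds 3 GC boxes and 26 CG pairs at a GC content of 72%, and no other motif of the 6. The *Agpat4* window holds 2 CCAAT boxes and 11 CG pairs at 53.3%, and none of the others. *Agpat1*, whose promoter also rose, has 2 RefSeq windows, which are not shown. The one at chr17:34605611-34605910 holds 1 CCAAT box, 1 GC box and 24 CG pairs at 68%. The one at chr17:34608764-34609063 holds 1 GC box and 4 CG pairs at 54.3%. Whether the letters go with the direction was not tested. A match is a description of the letters and not of a bound factor.

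*Agpat3* has 2 start sites with peaks, which allows a comparison of its isoforms. The peak at the inner start (chr10:78133893-78134293, start of NM_001404870.1) gave 201 and 233 reads in KL and 227 and 218 in KLG4m/m, with overlapping groups and 0.09 on the log2 scale (edgeR adjusted p = 0.629). The peak at the outer start (chr10:78188099-78188499, start of NM_001404875.1) was weaker and gave 48 and 76 reads in KL and 39 and 39 in KLG4m/m. Its log2 fold change of -0.61 ± 0.23 (SE) did not pass (edgeR adjusted p = 0.0922), and it rests on the library KL replicate 2: without KL replicate 1 it was -0.90 (edgeR adjusted p = 0.0100), and without KL replicate 2 it was -0.24. The intron peak between them gave 32 and 26 reads against 22 and 17 (-0.51, edgeR adjusted p = 0.290). None of the 3 passed the test against *Agpat3* as a whole (edgeR diffSpliceDGE, adjusted p of 0.274 or more). *Agpat5*, which encodes a mitochondrial member, gave 198 and 239 reads at its promoter in KL and 205 and 178 in KLG4m/m, a log2 fold change of -0.13 (95% interval -0.37 to 0.10), and its intron peak gave -0.30 (edgeR adjusted p = 0.652).

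To set the isoenzymes side by side, the start-site peaks of each family were taken as 1 unit. This was added after the values were seen, so the differences are a description without a test. From the AGPAT promoters as a whole, the *Agpat2* promoter differed by -0.51 on the log2 scale, and by -0.59 to -0.43 without each library in turn. *Agpat4* stood at 0.28, *Agpat1* at 0.24, the outer *Agpat3* start at -0.68 and *Agpat5* at -0.20.

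**Figure D3:**
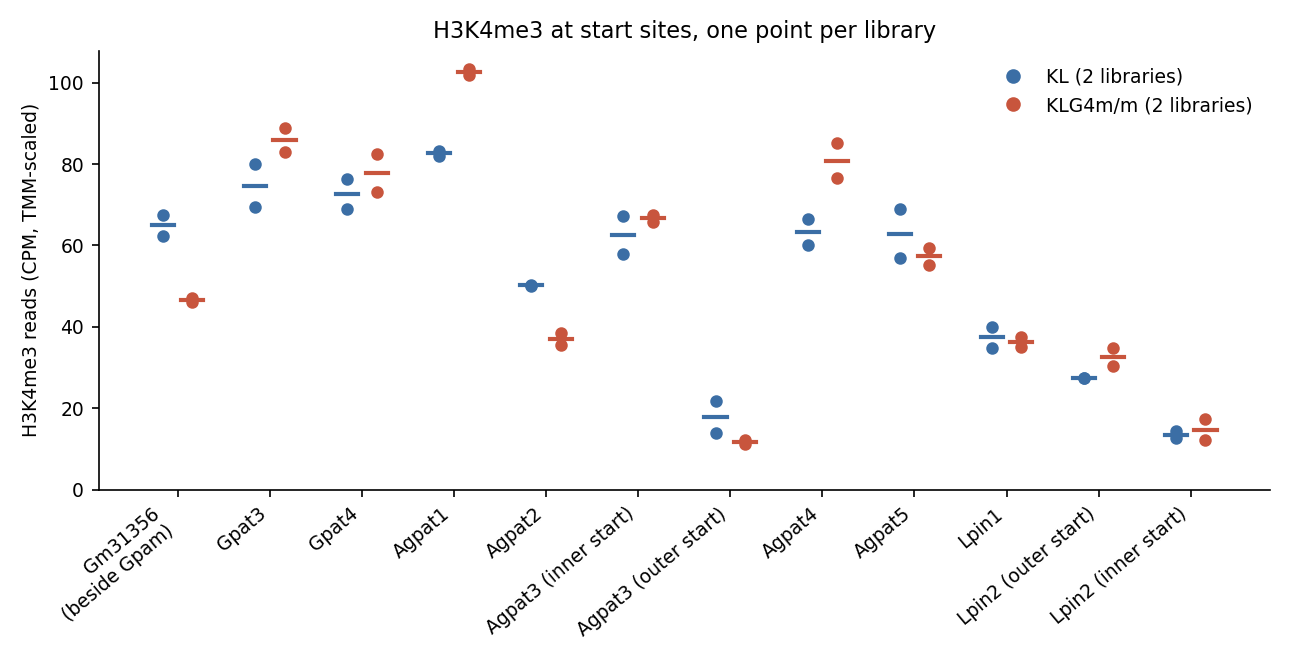
H3K4me3 level (TMM-scaled CPM, vertical axis) at the 11 member peaks within 1 kb of a start site and at the *Gm31356* peak, 1 point per library with the group mean as a line. *Agpat1* and *Agpat4* stand higher and *Agpat2* and *Gm31356* lower in both KLG4m/m libraries, each with an adjusted p under 0.05 by edgeR.

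All member peaks are 400 bp wide, so their levels compare reads over equal widths, and not the whole mark at each gene. At *Lpin1*, for example, the peak 1.6 kb upstream held a further 34.7 CPM in KL. In KL tumor cells the *Agpat1* promoter was the highest at 82.6 CPM, followed by *Gpat3* (74.7) and *Gpat4* (72.5), whose libraries overlapped. *Agpat4* (63.3), *Agpat5* (62.9) and the inner *Agpat3* start (62.5) came next, also with overlapping libraries, then *Agpat2* (50.2), *Lpin1* (37.4) and *Lpin2* (27.3). The outer *Agpat3* start (17.8) and the inner *Lpin2* start (13.5) were the weakest, and their libraries overlapped. In KLG4m/m tumor cells *Agpat4* (80.9) lay above *Gpat4* (77.7) with overlapping libraries, and *Agpat2* (37.1) came down to the level of *Lpin1* (36.2).

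Lipins are the magnesium-dependent phosphatases that make diacylglycerol, and the members *Lpin1* and *Lpin2* gave no call at any of their 14 peaks. Of all peaks only 3.10% were higher and 5.52% lower, so the lack of a call does not set the lipins apart. *Lpin3*, a lipin gene outside the members, gave 155 and 148 reads at its promoter in KL and 155 and 159 in KLG4m/m. That log2 fold change of 0.11 did not pass (edgeR adjusted p = 0.625). *Lpin1*, which also acts as a transcriptional coactivator, had 5 peaks. Its promoter (chr12:16639385-16639785) gave 139 and 121 reads in KL and 129 and 113 in KLG4m/m, a log2 fold change of -0.05 (95% interval -0.33 to 0.23). The peak 1.6 kb upstream gave 119 and 122 reads against 123 and 125, or 0.10 (95% interval -0.18 to 0.38). The lowest value was that of a weak intron peak, at chr12:16670400-16670800, where KL gave 14 and 14 reads and KLG4m/m 6 and 8 (-0.93 ± 0.47 SE, edgeR adjusted p = 0.220). Summed over its peaks *Lpin1* stood at 94.4 ± 4.8 and 93.7 ± 4.7 CPM, a log2 fold change of -0.01 (95% interval -0.19 to 0.17).

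*Lpin2* had 9 peaks, the most of any member, with log2 fold changes from -0.45 to 0.33, and its sum was 113 ± 0.33 CPM in KL and 117 ± 0.91 CPM in KLG4m/m (0.05, 95% interval -0.11 to 0.22). The peak at the outer start (chr17:71491217-71491617, beside the start of NM_022882.4) gave 95 and 95 reads in KL and 105 and 112 in KLG4m/m, a log2 fold change of 0.25 ± 0.15 (SE; edgeR adjusted p = 0.309). The peak at the inner start (chr17:71511619-71512019, start of NM_001164885.1) gave 44 and 50 reads against 60 and 39, or 0.13 ± 0.22 (SE; edgeR adjusted p = 0.759), and the 2 libraries of KLG4m/m lay on either side of KL. A peak near the level of the outer start, 9.8 kb downstream of the nearest listed start, gave 105 and 83 reads against 86 and 93 (-0.01). One further peak listed under *Lpin2* lies in an exon of *Emilin2*, 6.74 kb past the end of *Lpin2*, with 21 and 26 reads against 25 and 32. The outer start here is that of NM_022882.4. The peak beside it begins 244 bp past this start and its window ends 50 bases after it, so the peak lies outside. RefSeq has a further *Lpin2* window farther out, at chr17:71183282-71183581, with 2 GC boxes and 1 E-box, which is not shown. The windows at the starts of NM_022882.4 and NM_001164885.1 are shown because the peaks beside or at these starts differ in strength. They are on GRCm38.p6 and the plus strand, at chr17:71183728-71184027 and chr17:71204404-71204703, 20676 bases apart, 5′ to 3′ with motif matches in capitals.
Lpin2 outer start: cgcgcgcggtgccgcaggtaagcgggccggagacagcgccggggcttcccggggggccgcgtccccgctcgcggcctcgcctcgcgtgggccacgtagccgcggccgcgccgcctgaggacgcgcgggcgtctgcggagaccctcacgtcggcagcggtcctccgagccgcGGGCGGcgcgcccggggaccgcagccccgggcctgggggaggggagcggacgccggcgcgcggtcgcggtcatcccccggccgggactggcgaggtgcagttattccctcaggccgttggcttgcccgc
Lpin2 inner start: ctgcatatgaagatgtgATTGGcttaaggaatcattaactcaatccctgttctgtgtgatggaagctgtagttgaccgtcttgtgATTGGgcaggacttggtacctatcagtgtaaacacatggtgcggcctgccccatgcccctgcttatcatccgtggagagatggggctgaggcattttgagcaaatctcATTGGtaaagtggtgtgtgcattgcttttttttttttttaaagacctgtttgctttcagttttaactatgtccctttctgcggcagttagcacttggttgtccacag
The outer window has a GC content of 80.7% with 54 CG pairs and holds 1 GC box. The inner window has 45% with 4 CG pairs and holds 3 CCAAT boxes. In KL the peak at the inner start stood at 13.5 CPM, against 27.3 CPM for the peak beside the outer start.

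Peak by peak within genes, 27 of the 30 member peaks belong to genes with several peaks and could be tested against the rest of their gene. None passed by edgeR's diffSpliceDGE, beside 1.29% of all peaks so tested, and 3 had an unadjusted p under 0.05. Peaks away from start sites held few reads, which limits what these tests could show. The 11 member peaks within 1 kb of a start had a median log2 fold change of 0.097, with 2 higher and 1 lower (2.89% and 8.43% of all such peaks). The 19 farther peaks had a median of -0.11, with 2 higher and 1 lower (3.29% and 2.82%), and they held 6 to 125 reads per library against 39 to 356 at the starts.

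Around the members, 59 genes of the steps before, beside and after them were listed, of which 48 had a peak. With reads summed per gene, 3 were higher and 5 lower by edgeR and 40 did not pass. These are 6.25% and 10.4% of them, close to the 5.38% and 9.63% of all genes, so the counts do not set the pathway apart, and the median log2 fold change was -0.0085, beside 0.0023 over all genes. Before the first acylation, *Gpd1*, the cytosolic enzyme that makes glycerol 3-phosphate, gave 69 and 85 reads in KL and 46 and 50 in KLG4m/m and fell by 0.63 (SE 0.20; edgeR adjusted p = 0.0175). *Gpd1l*, its paralog, gave 309 and 283 reads against 303 and 294 (log2 fold change 0.07, edgeR adjusted p = 0.685). Its promoter peak, which holds most of these reads, stood at 0.016, and an intergenic peak stood at 0.057. A weak peak in intron 1 gave 14 and 18 reads in KL and 23 and 29 in KLG4m/m. Its groups did not overlap, but its log2 fold change of 0.75 ± 0.32 (SE) did not pass (edgeR adjusted p = 0.145). Among the other makers of phosphatidic acid and its lyso forms, *Lpcat2* rose by 0.69 (edgeR adjusted p = 1.6e-05) and *Lpcat1* fell by 0.29 (edgeR adjusted p = 0.0269). Both encode lysophosphatidylcholine acyltransferases, LPCAT1 being the form known from alveolar type 2 cells and LPCAT2 the form known from inflammatory cells. The *Lpcat1* value rests on KLG4m/m replicate 4, where the reads were 332 and 334 in KL and 312 and 212 in KLG4m/m, and was -0.08 without it. Peak by peak, 6 of the 92 peaks of these genes were higher and 5 lower (6.52% and 5.43%, beside 3.10% and 5.52% of all peaks), and 2 of the 68 that could be tested differed from the rest of their gene, 1 at *Plpp1* and 1 at *Dgat2*.

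After the lipin step the genes again went both ways. *Plpp1*, a lipid phosphate phosphatase at membranes, gave 117 and 104 reads in KL and 144 and 147 in KLG4m/m, higher by 0.45 on the log2 scale (SE 0.14; edgeR adjusted p = 0.0167). Its 2 peaks moved in opposite directions. The promoter peak gave 73 and 61 reads against 128 and 126 and rose by 0.98 (edgeR adjusted p = 0.000221), while the peak in intron 1 at chr13:112947408-112947808 gave 44 and 43 against 16 and 21 and fell by 1.17 (edgeR adjusted p = 0.00733). The intron peak differed from *Plpp1* as a whole by -1.63 (edgeR diffSpliceDGE, adjusted p = 9.5e-05). *Dgat1*, which makes triacylglycerol from diacylglycerol, gave 277 and 259 reads against 234 and 178, lower by 0.33 on the log2 scale (SE 0.10; edgeR adjusted p = 0.0219). The same reads did not pass in the fit by peak (*Dgat1* has 1 peak; edgeR adjusted p = 0.0584), and without KLG4m/m replicate 4 the value was -0.18 (edgeR adjusted p = 0.389). *Dgat2*, the other enzyme of this step, gave 386 and 422 reads against 422 and 388, a log2 fold change of 0.06 (95% interval -0.10 to 0.22). Its promoter peak stood at -0.05 (edgeR adjusted p = 0.773), but the weaker intergenic peak 6.74 kb upstream, at chr7:98838657-98839057, gave 32 and 41 reads in KL and 58 and 69 in KLG4m/m. That peak rose by 0.85 ± 0.22 (SE; edgeR adjusted p = 0.0135) and differed from *Dgat2* as a whole by 0.79 (edgeR diffSpliceDGE, adjusted p = 0.0426). *Dgkz*, a kinase that turns diacylglycerol back into phosphatidic acid, was higher by 0.28 summed over 7 peaks (edgeR adjusted p = 0.000556). Its start-site peaks differed: that of NM_138306.2 stood at -0.07 (edgeR adjusted p = 0.788). Those of XM_006498540.2 and XM_006498541.3 rose by 0.45 and 0.60 (edgeR adjusted p = 0.0248 and 0.0197). The other peaks, some of them inside *Creb3l1*, stood at 0.28 to 0.45 and did not pass.

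On the CDP-diacylglycerol branch, where phosphatidic acid goes towards phosphatidylinositol and cardiolipin, 2 of 6 genes with a peak were lower and none higher. Over all genes 9.63% were lower and 5.38% higher, and the branch, 1 of several groups listed, was not tested as a set. *Ptpmt1*, the mitochondrial phosphatase of cardiolipin synthesis, gave 263 and 259 reads in KL and 124 and 122 in KLG4m/m and fell by 1.03 (SE 0.12; edgeR adjusted p = 1.2e-11). *Cds1*, a CDP-diacylglycerol synthase, gave 157 and 176 reads against 107 and 103 and fell by 0.61 (SE 0.14; edgeR adjusted p = 0.000599). None of the 9 choline and ethanolamine genes with a peak passed (log2 fold change -0.16 to 0.18), and the 3 partners of the members, *Chp1*, *Bscl2* and *Cnep1r1*, gave 0.18, 0.03 and -0.29 without a call.

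**Figure D4:**
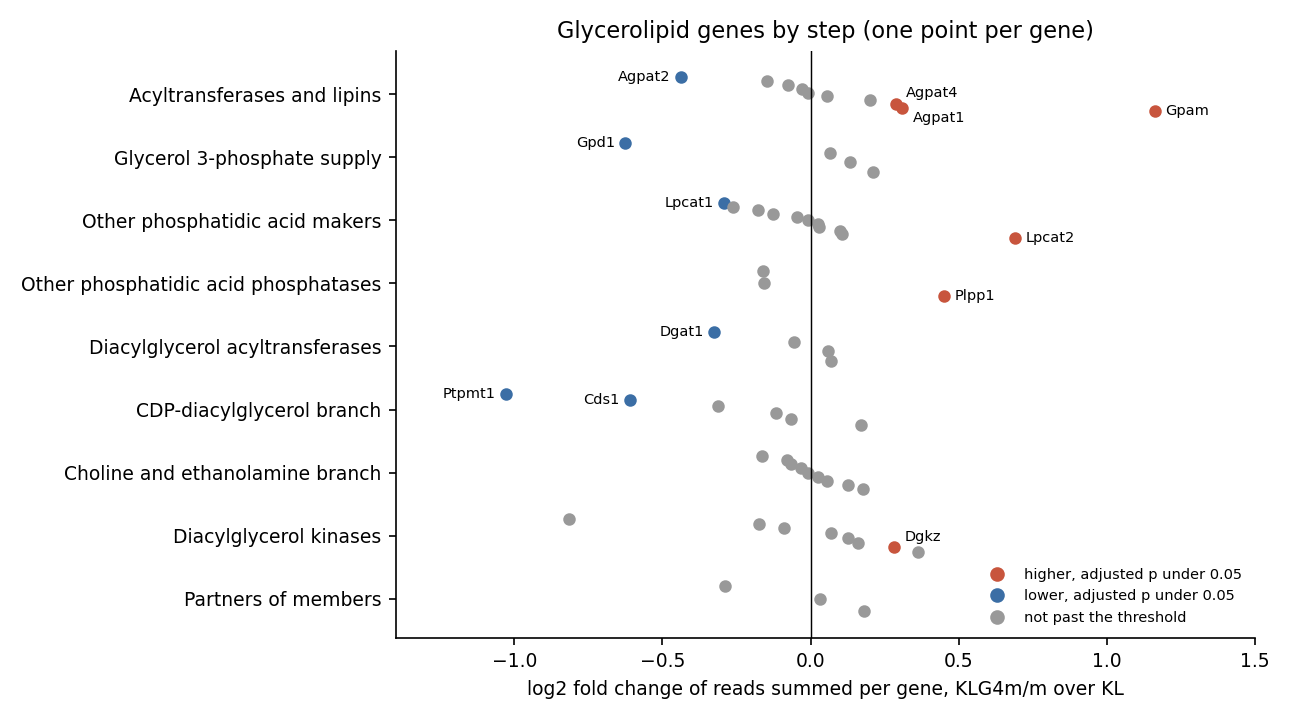
Log2 fold change (KLG4m/m over KL, horizontal axis) of H3K4me3 reads summed per gene, 1 point per gene, for the 10 members and the 48 genes around them grouped by step. Named, colored points passed an adjusted p under 0.05 by edgeR: 3 members and 3 other genes higher, 1 member and 5 other genes lower. *Lpin3*, a lipin gene outside the members, is drawn with the other phosphatidic acid makers, although lipins use phosphatidic acid up.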

How the data were processed

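H3K4me3 CUT&Tag libraries from 2 KL and 2 KLG4m/m samples were used; H3K27ac libraries were not analysed here. Per the labels and methods, the authors used FastQC, Trim Galore 0.6.10 and BWA 0.7.15 for quality control, trimming and mapping, dropped duplicates (Picard 2.17.3), poorly mapped and mitochondrial reads, called peaks with MACS2 2.2.7.1 and named HOMER 4.11.1 for annotation; reads were mapped to Mus_musculus_Ensemble_94; the build of the positions in the table, which differ from RefSeq GRCm38.p6, and how peaks were merged and reads counted are not given in the sources used here. The authors deposited whole-number counts per peak and library, without normalization, which were used, and CPM and the results of their own comparison, which were not. The authors' signed distance to the nearest start site (a score in base pairs) was used to sort peaks.

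Counts of all 35486 peaks were fitted with edgeR 4.0.16 (R 4.3.3; TMM, quasi-likelihood, no filter, two-sided, no covariate), since the methods name no test for this comparison; p-values were adjusted over all peaks, or over all 20871 genes for reads summed per gene. Differences between peaks of a gene were tested with diffSpliceDGE on the same fit. The SE is the log2 fold change divided by the root of the F statistic. The threshold was an adjusted p of 0.05. An exact permutation test of 2 against 2 libraries cannot go below p = 0.333 and was not used. Alternatives were DESeq2 1.42.0, limma 3.58.1 on log2(CPM + 1) with and without quantile normalization, RLE, total-read and median-centring factors, a minimum mean of 10 CPM, the peak nearest the start per gene, and leaving out each library. The edgeR fits by peak, within genes and by gene, DESeq2, and limma on log2(CPM + 1) were also run on simulated counts. In these, 200 of the stronger peaks were changed 2-fold at a common dispersion of 0.00133. The simulation did not cover weak peaks, changes under 2-fold or the other alternatives. Counts limit the precision. The 95% intervals come from the edgeR SE and include the spread between libraries. Replicate libraries differed by more than counting noise (chi-square per degree of freedom 1.13 in KL and 1.23 in KLG4m/m), so none was treated as a duplicate. This does not show that each library comes from a separate mouse.

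All members and all their peaks are named, those past a threshold in full; of the pathway list, genes past the threshold plus *Dgat1*, *Dgat2* and *Gpd1l*. The members and lists were chosen with earlier results of these data known. A further allele that both groups carry and a leukocyte marker are not reported here. Endothelial markers (5 of 5 with a peak) summed to 138 to 163 CPM in KL and 131 to 147 in KLG4m/m. Their median log2 fold change was -0.51, and 1 was lower (*Tek*, -0.55, edgeR adjusted p = 0.0205). Fibroblast markers (3 of 6) summed to 64.6 to 71.7 and 69.5 to 72.8 CPM, and 1 was higher (*Pdgfrb*, 1.29, edgeR adjusted p = 0.0155). Adipocyte markers (3 of 6) summed to 83.8 to 84.2 and 70.6 to 84.2 CPM, and none passed.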

Additional observations from a re-analysis of the deposited data

How the results depend on the processing

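No paired analysis was possible because the KL and KLG4m/m libraries share no replicate number. With RLE, total-read or median-centring factors the same numbers of member peaks, member genes and pathway genes were called; the scalings moved the median of all peaks by under 0.1 on the log2 scale. With a minimum mean of 10 CPM, which removes the weaker *Gpam* peak and the *Gpat4* intron peaks, 3 member peaks were higher and 1 was lower. DESeq2 called 0 member peaks higher and 0 lower and gave no adjusted p for 12 of the 30; over all peaks it called 277, against 3059 by edgeR. By genes DESeq2 called 1 member higher (*Gpam*), 0 lower and 2 pathway genes. Limma on log2(CPM + 1) called 0 member peaks, 1 member gene higher (*Gpam*), 0 lower and 1 pathway gene (*Ptpmt1*), and after quantile normalization 0 of each, with 6 member peaks, 3 member genes and 7 pathway genes under an unadjusted p of 0.05; limma called 0 of all peaks. The cause of these differences between tools was not tested.

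Without each library in turn, the lone library being assumed to vary like the other group, 0 to 2 member peaks were higher and 0 to 1 lower, 0 to 2 member genes were higher and 0 lower, and 0 to 6 pathway genes were called. The counts were 0 without either KLG4m/m replicate, where no peak of the table was called, and edgeR called 2161 and 1482 peaks without KL replicate 1 and KL replicate 2. Counting the *Gm31356* peak under *Gpam* put 2 member peaks past the within-gene threshold, a grouping chosen with the values in view, and turned the *Gpam* sum to -0.10. The direction of each of the 6 called member peaks held in every alternative that gave a value. That adds no support, since the groups did not overlap at these peaks and leaving out a library could hardly turn a sign.

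Some values that had not passed changed sign. After quantile normalization these were the *Lpin1* promoter (0.0032), the *Lpin2* peak 9.8 kb downstream (0.031) and summed *Dgat2* (-0.0026). With only the peak nearest the start they were *Gpat4* (0.099), *Agpat3* (0.096) and *Dgat2* (-0.047). Without each library the ranges that crossed 0 were, for the inner *Agpat3* start, -0.010 to 0.20; the *Agpat5* promoter, -0.26 to 0.0095; the *Lpin1* intron peaks 19.9 and 5.2 kb downstream, -0.60 to 0.090 and -0.22 to 0.35; the *Lpin1* promoter, -0.14 to 0.056; the *Lpin2* peaks 20.8 and 18.2 kb upstream, -0.53 to 0.20 and -0.66 to 0.17; the *Lpin2* peak 2.3 kb upstream, -0.15 to 0.030; the inner *Lpin2* start, -0.17 to 0.36; the *Lpin2* peaks 9.8 and 16.3 kb downstream, -0.17 to 0.17 and -0.068 to 0.42; and for reads summed, *Gpat4*, -0.13 to 0.069, *Agpat3*, -0.19 to 0.063, and *Lpin1*, -0.062 to 0.048. Counts of 9 to 26 reads, as at the called *Gpat4* intron peak, leave little room to resolve small changes.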
